A study of Oryza sativa with 12 samples.

Results

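A set of 8 NAC transcription factor loci of rice, tied to stress, defence or leaf senescence, is described here across the groups of an OsC3'H1 knockout study. They were chosen by locus identifier, as the merged loci whose gene column holds SNAC1 (Os03g0815100), NAC6 (Os01g0884300), NAC5 (Os11g0184900), NAC3 (Os07g0225300), NAC4 (Os01g0816100), ONAC122 (Os11g0126900), ONAC131 (Os12g0123700) or NAP (Os03g0327800). The choice was made with earlier results of these data known. All 8 were found, each as 1 locus of the 37672 in the authors' deposited table, and each locus held that gene alone. RNA from whole aerial parts of Nipponbare plants was sequenced in 12 samples, with 3 biological replicates in each of 4 groups. These were OsC3'H1 knockout line a at 12 days, OsC3'H1 knockout line b at 12 days, wild type at 12 days and wild type at 5 days. The knockout plants were of generation T3, and the labels do not say how the lines were made or whether each is a single clone. All plants were grown at 27 °C under a 12 h photoperiod, on diluted Murashige and Skoog agar (0.4%). Wild-type control plants were transferred on day 7 to a hypotonic solution in tap water, a step that the labels do not give for the knockout plants. If the knockout plants stayed on agar, genotype and growth medium differed together between either line and 12-day wild type, and could not be told apart. The 5-day wild type was younger than that transfer, and differs from the lines by age as well as genotype.

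NAC proteins are a plant family of transcription factors that share an N-terminal domain for DNA binding and differ in their C-terminal regulatory part. In rice, several of them are switched on by drought, salt and the hormone abscisic acid, and plants that overexpress SNAC1, NAC6 or NAC5 tolerate drought or salt better. Other members act in cell death and resistance to rice blast, and NAP links abscisic acid to leaf yellowing.

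The authors' deposited table gives 1 FPKM value per group (fragments counted per transcript length and scaled to the fragments mapped) over its 3 replicates, so no spread between replicates can be shown. Errors after a ± sign are implied standard errors, obtained by dividing a log2 ratio by its deposited Cuffdiff statistic. A locus was called higher or lower where the deposited Cuffdiff q was under 0.05. Loci at 1 FPKM or more numbered 22112 in line a, 22152 in line b, 21295 in 12-day wild type and 20882 in 5-day wild type. The depth of the libraries is unknown. In the authors' deposited table the targeted gene, OsC3'H1, stood at 10.7 FPKM in line a and 12.9 FPKM in line b, against 53.1 FPKM in 12-day wild type, and fell by 2.31 and 2.05 on the log2 scale (Cuffdiff q = 0.000253 for each line). The 3 leaf markers (RBCS, RCA and CAB2R) summed to 2596 FPKM in line a and 2287 FPKM in line b, against 33109 FPKM in 12-day wild type and 25629 FPKM in 5-day wild type, and all 3 were called lower in both lines against both wild types. The root markers (LSI1 and Os02g0662000) summed to 7.26, 9.47, 4.69 and 12.1 FPKM in line a, line b, 12-day wild type and 5-day wild type. LSI1 was called higher in both lines than in 12-day wild type and lower than in 5-day wild type. Os02g0662000 was not tested. It stood at 0.703 FPKM in line a, 2.48 FPKM in line b, 2.37 FPKM in 12-day wild type and 1.37 FPKM in 5-day wild type. The meristem markers OSH1 and OSH15 summed to 11.8 FPKM in line a, 9.64 FPKM in line b and 5.57 FPKM in 12-day wild type, and both were listed at 0 in 5-day wild type. Against 12-day wild type both meristem markers were called higher in line a and neither in line b. The seed marker GLUA2 stood between 2.41 and 3.22 FPKM in the 4 groups and was not tested. The part of these marker differences in the NAC results was not tested, and in whole shoots fewer cells of a type and less RNA per cell cannot be told apart.

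The NAC loci stood higher in the knockout lines than in either wild type. By the authors' deposited q, 7 of the 8 were called higher in line a than in 12-day wild type, where 21.3% of the 18343 tested loci were called higher and 23.5% lower. The same 7 loci were called higher in line b than in 12-day wild type, where 22.2% of the 18416 tested loci were called higher and 24.2% lower. ONAC131 was the member not called in both. No member was called lower than in 12-day wild type in either line. Since the members were chosen with earlier results of these data known, their counts beside these shares are descriptions only. Against 12-day wild type the median log2 ratio of the 8 was 2.19 for line a and 2.25 for line b, beside a median of 0.00 over all tested loci in each. Both lines share the 12-day wild-type samples as their control, so their ratios are not independent of each other.

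**Figure D1:**
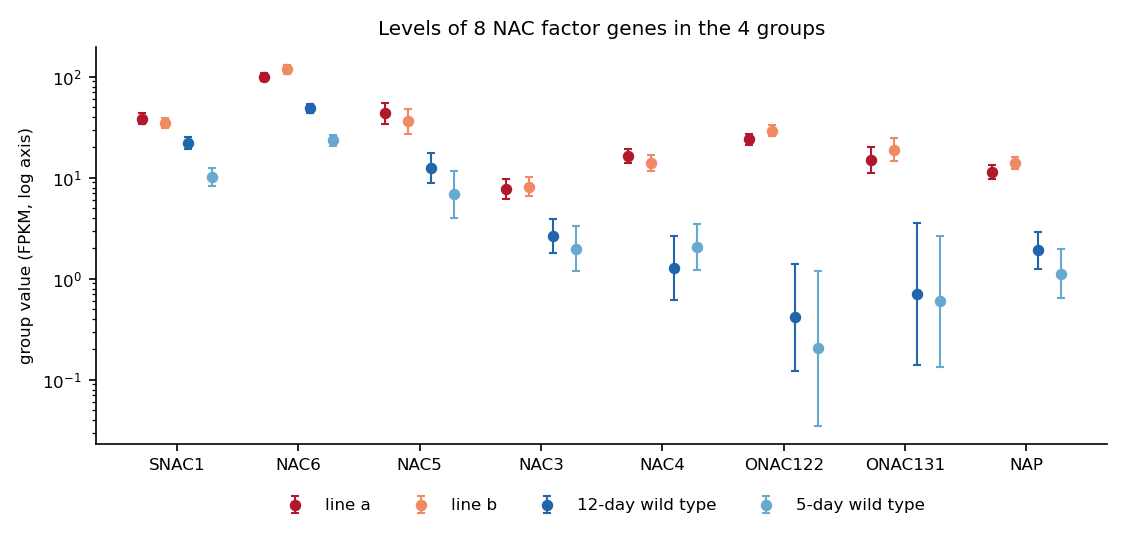
Group FPKM of the 8 NAC loci on a log axis, with each group as 1 point over 3 replicates in the order line a, line b, 12-day wild type and 5-day wild type. Bars are the implied standard error of the group. Both knockout lines lie above both wild types at every locus, and the gap is widest for ONAC122.

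Among the drought and abscisic acid factors, SNAC1 is expressed in guard cells and closes stomata under drought. It lies on chromosome 3 of IRGSP-1.0, from 34166099 to 34167521. In the authors' deposited table SNAC1 stood at 38.5 FPKM in line a, 34.7 FPKM in line b, 22.1 FPKM in 12-day wild type and 10.1 FPKM in 5-day wild type. Both lines were above both wild types, by less than 2-fold over the older one. The log2 ratio of SNAC1 to 12-day wild type was 0.81 ± 0.26 for line a and 0.65 ± 0.26 for line b (SE implied by the authors' deposited table; Cuffdiff q = 0.000253 for each). These were the lowest ratios of the 8 loci, at place 2787 from the top of 18343 tested loci for line a and 3528 of 18416 for line b. With a 2-fold minimum SNAC1 was not called. Under that minimum 20.8% of tested loci were called in either direction for line a and 21.9% for line b. Against 5-day wild type the log2 ratio of SNAC1 was 1.93 ± 0.33 for line a and 1.78 ± 0.33 for line b in the authors' deposited table (Cuffdiff q = 0.000253 for each).

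NAC6, also known as SNAC2, responds to cold, drought, salt, wounding and blast infection. It lies on chromosome 1 from 38398995 to 38401481, where the span is shared with Os01g0884350, a locus at 0 FPKM. The authors' deposited table listed NAC6 at 99.4 FPKM in line a, 118 FPKM in line b, 48.5 FPKM in 12-day wild type and 23.6 FPKM in 5-day wild type. NAC6 was the most abundant of the 8 in each of the 4 groups. Its log2 ratio to 12-day wild type was 1.04 ± 0.21 for line a and 1.28 ± 0.21 for line b in the authors' deposited table (Cuffdiff q = 0.000253 for each). Relative to 5-day wild type, NAC6 was 4.22-fold higher in line a and 5.01-fold higher in line b per the authors' deposited table (Cuffdiff q = 0.000253 for each).

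NAC5 is an abscisic acid-responsive factor whose reported targets in rice include LEA3. Its locus on chromosome 11, from 4233439 to 4310683, is a long merged span that holds 7 other loci, of which 3 were tested and 1 was called higher in each line than in 12-day wild type. NAC5 stood at 43.3 FPKM in line a, 36.3 FPKM in line b, 12.6 FPKM in 12-day wild type and 6.89 FPKM in 5-day wild type in the authors' deposited table. Both lines were again above both wild types. The log2 ratio of NAC5 to 12-day wild type was 1.79 ± 0.60 for line a and 1.53 ± 0.64 for line b, and to 5-day wild type 2.65 ± 0.85 for line a and 2.40 ± 0.87 for line b, per the authors' deposited table. All 4 of these NAC5 ratios were called (Cuffdiff q = 0.000253 for each).

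NAC3 is induced by abscisic acid and salt in rice. It lies on chromosome 7 from 6968002 to 6969254. NAC3 had the lowest level of the 8 in both lines, at 7.73 FPKM in line a and 8.18 FPKM in line b, against 2.63 FPKM in 12-day wild type and 1.99 FPKM in 5-day wild type in the authors' deposited table. The lines lay close together and above both wild types. The log2 ratio of NAC3 to 12-day wild type was 1.55 ± 0.65 for line a (Cuffdiff q = 0.00946) and 1.63 ± 0.65 for line b (q = 0.00765) in the authors' deposited table. Against 5-day wild type it was 1.96 ± 0.80 for line a (Cuffdiff q = 0.00525) and 2.04 ± 0.80 for line b (q = 0.00407) in the authors' deposited table. A normal p taken from the deposited statistic, adjusted over all tests, gave NAC3 0.0837 for line a and 0.0610 for line b against 12-day wild type, neither of which passes at 0.05. By the same reading SNAC1 had an adjusted p of 0.0665 and NAC5 of 0.0789 for line b over 12-day wild type. In either direction, this reading called 22.2% of all loci it could test for line a and 23% for line b against 12-day wild type.

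NAC4 is a positive regulator of hypersensitive cell death, the local death of infected plant cells. It lies on chromosome 1 from 34692911 to 34694391. In the authors' deposited table NAC4 stood at 16.4 FPKM in line a and 13.9 FPKM in line b, against 1.27 FPKM in 12-day wild type and 2.06 FPKM in 5-day wild type. It was the only member with a lower value in 12-day than in 5-day wild type, a difference that was not tested. The log2 ratio of NAC4 to 12-day wild type was 3.69 ± 1.08 for line a (Cuffdiff q = 0.000253) and 3.45 ± 1.09 for line b (q = 0.000703) in the authors' deposited table. These are 12.9-fold and 10.9-fold differences. Over 5-day wild type, NAC4 was 7.94-fold higher in line a and 6.75-fold higher in line b per the authors' deposited table, and both were called.

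ONAC122 and ONAC131 are close relatives in rice, and silencing either one lowers resistance to blast. They lie near the ends of chromosomes 11 and 12, which share a duplicated segment, and how the authors' counting treated reads that match both copies is not given in the sources used here, so the split of reads between them is uncertain. ONAC122 spans 1233931 to 1236021 on chromosome 11. The authors' deposited table put it at 24.0 FPKM in line a and 29.3 FPKM in line b, against 0.417 FPKM in 12-day wild type and 0.205 FPKM in 5-day wild type. ONAC122 was thus the least abundant of the 8 in both wild types and the fourth most abundant in both lines. Its log2 ratio to 12-day wild type was 5.85 ± 1.77 for line a and 6.13 ± 1.77 for line b, or 57.6-fold and 70.2-fold, in the authors' deposited table (Cuffdiff q = 0.0235 for each). Among all tested loci these ratios stood at place 125 from the top in line a, and at place 126 in line b. A stricter q of 0.01 called 34.8% of tested loci in either direction for line a and 36.1% for line b. ONAC122 was not called at that q. Against 5-day wild type the log2 ratio was larger, at 6.87 ± 2.55 for line a and 7.16 ± 2.55 for line b, and was not called in the authors' deposited table (Cuffdiff q = 0.328 for each). Both were called when p was taken from the deposited statistic, with adjusted p of 0.0405 for line a and 0.0306 for line b, while NAC3 was then not called, at 0.0737 and 0.0571. That reading called 26.4% and 27.6% of loci in either direction against 5-day wild type for line a and line b. The wild-type values of ONAC122 are under 1 FPKM, so the size of these ratios rests on very low values.

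ONAC131 was the 1 member not called in any comparison. Its merged locus on chromosome 12, from 1069987 to 1165291, holds 10 other loci, of which 5 were tested, none was called higher and 2 were called lower in each line than in 12-day wild type. The authors' deposited table listed ONAC131 at 15.0 FPKM in line a and 19.03 FPKM in line b, against 0.710 FPKM in 12-day wild type and 0.598 FPKM in 5-day wild type. The log2 ratio to 12-day wild type was 4.40 ± 2.38 for line a (Cuffdiff q = 0.328) and 4.74 ± 2.37 for line b (q = 0.327) in the authors' deposited table. The values are far apart, but the implied error of ONAC131 was the largest of the 8 in these comparisons. To 5-day wild type its log2 ratio was 4.64 ± 2.19 for line a and 4.99 ± 2.18 for line b in the authors' deposited table (Cuffdiff q = 0.373 for each).

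NAP is a senescence factor that is induced by abscisic acid and is reported in rice to act on chlorophyll breakdown genes. It lies on chromosome 3 from 11973987 to 11976381. NAP stood at 11.5 FPKM in line a and 13.98 FPKM in line b, against 1.92 FPKM in 12-day wild type and 1.13 FPKM in 5-day wild type in the authors' deposited table. Its log2 ratio to 12-day wild type was 2.59 ± 0.64 for line a and 2.87 ± 0.64 for line b in the authors' deposited table (Cuffdiff q = 0.000253 for each). These are 6.01-fold and 7.30-fold differences, and NAP was also called when p was taken from the statistic, with adjusted p of 0.000681 for line a and 9.67e-05 for line b. Relative to 5-day wild type, NAP was 10.2-fold higher in line a and 12.4-fold higher in line b per the authors' deposited table (Cuffdiff q = 0.000253 for each).

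**Figure D2:**
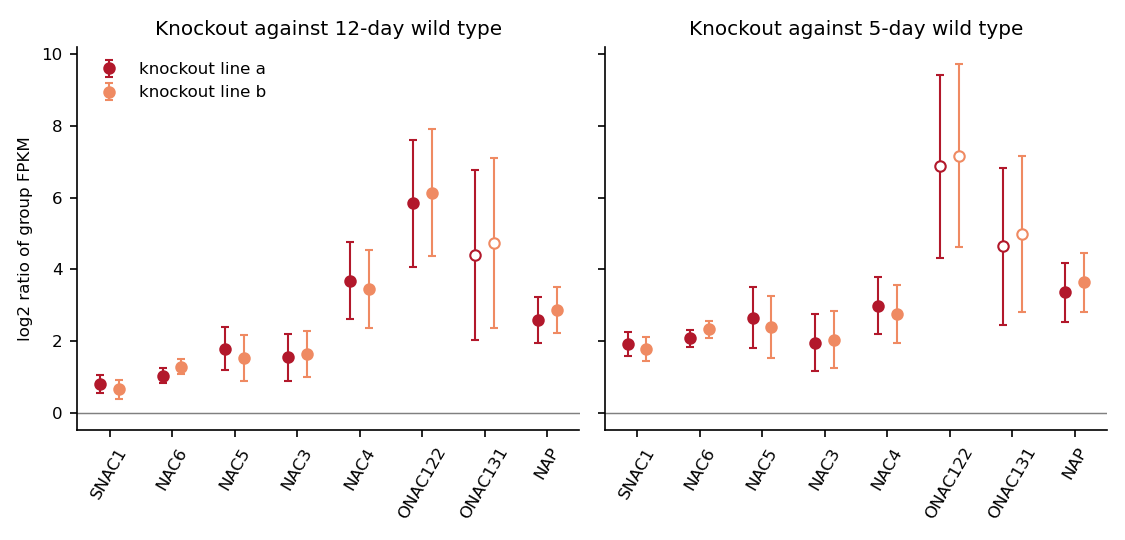
Log2 ratio of group FPKM for the 8 NAC loci in each comparison, with bars of 1 implied standard error. Filled points were called at Cuffdiff q under 0.05 and open points were not. ONAC122 and ONAC131 have the highest ratios of the lines to wild type and also the longest bars.

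Against 5-day wild type 6 of the 8 were called higher for line a and 6 for line b, where 24.7% of 18320 and 25.6% of 18397 tested loci were called higher. ONAC122 and ONAC131 were the 2 members not called. The median log2 ratio of the members was 2.82 for line a and 2.58 for line b, against 0.01 over all tested loci in each. These comparisons share the knockout samples with those against 12-day wild type, and the values are given side by side only.

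**Figure D3:**
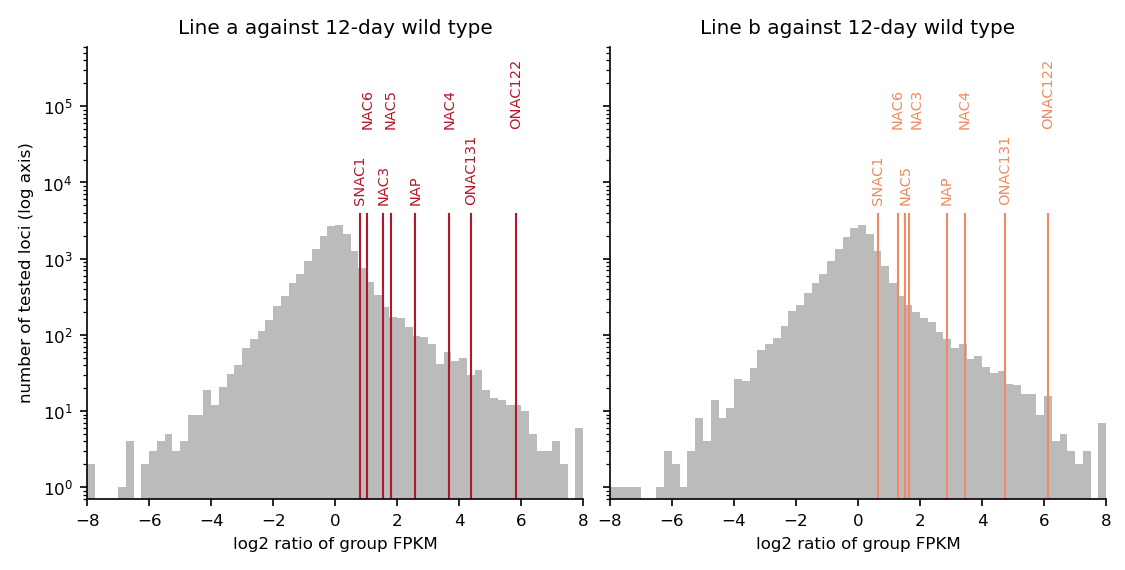
Number of tested loci (log axis) by log2 ratio to 12-day wild type, with a panel for each knockout line, in grey, with ratios beyond 8 drawn at the edge and infinite ratios left out. Vertical lines mark the 8 NAC loci, which all lie right of 0, with SNAC1 lowest and ONAC122 highest.

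Between the wild types, 3 members, SNAC1, NAC6 and NAC5, are listed as tested in the authors' deposited table. SNAC1 and NAC6 were called higher at 12 days than at 5 days, where 14.8% of 17250 tested loci were called higher. The log2 ratio of 12-day to 5-day wild type was 1.12 ± 0.35 for SNAC1 and 1.04 ± 0.24 for NAC6 in the authors' deposited table (Cuffdiff q = 0.000253 for each). NAC5 had a log2 ratio of 0.87 ± 0.92 in the authors' deposited table and was not called (Cuffdiff q = 0.181). For SNAC1 the ratio between the wild-type ages had a higher value than the ratio of either line to 12-day wild type, a difference that was not tested. The untested log2 ratios of the other members were 0.40 for NAC3, 0.77 for NAP, 1.03 for ONAC122, 0.25 for ONAC131 and -0.70 for NAC4 in the authors' deposited table.

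Line b was not called different from line a at any of the 8 loci by Cuffdiff, where 5% of 17876 tested loci were called in either direction. The authors' own column of significant loci marks 2 of the 8, NAC6 and ONAC122, beside 8.02% of all tested loci. These were also the 2 members at an unadjusted p under 0.05, for which the share over all tested loci was not computed. Adjusted p from the statistic called none of the 8, beside 0.661% of all tested loci. The log2 ratio of line b to line a was 0.25 ± 0.21 for NAC6, with a 95% interval of -0.16 to 0.65, in the authors' deposited table (Cuffdiff q = 0.0839). For ONAC122 it was 0.29 ± 0.24, with an interval of -0.19 to 0.76, in the authors' deposited table (Cuffdiff q = 0.0886). For SNAC1 the interval ran from -0.62 to 0.32 and for NAC4 from -0.92 to 0.45. The widest intervals were those of ONAC131, from -0.80 to 1.49, and of NAC5, from -1.29 to 0.78, so a difference of over 2-fold between the lines lies within them. Intervals of this kind use the implied error.

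The members kept NAC6 at the top while the order below it differed between groups. In line a the order from highest to lowest FPKM, which is per length, was NAC6, NAC5, SNAC1, ONAC122, NAC4, ONAC131, NAP and NAC3. In line b ONAC131 and NAP stood above NAC4, with the rest of the order as in line a. In 12-day wild type it was NAC6, SNAC1, NAC5, NAC3, NAP, NAC4, ONAC131 and ONAC122. In 5-day wild type NAC4 stood above NAC3 and NAP, and the order was otherwise that of 12-day wild type. Of the 7 neighbouring pairs, 2 in line a, 1 in line b, 2 in 12-day wild type and 1 in 5-day wild type differed by more than 1.96 times their combined error. In line a these were NAC6 over NAC5, by a log2 difference in level of 1.20 ± 0.37, and SNAC1 over ONAC122, by 0.68 ± 0.24. In line b it was NAC6 over NAC5, by 1.70 ± 0.43. In 12-day wild type NAC6 exceeded SNAC1 by 1.14 ± 0.25 and NAC5 exceeded NAC3 by 2.25 ± 0.75, and in 5-day wild type NAC6 exceeded SNAC1 by 1.22 ± 0.34. When the loci were ordered by log2 ratio to 12-day wild type instead, none of the 7 neighbouring pairs in either line differed by more than 1.96 times the combined error.

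The summed level of the 8 loci was 256 FPKM in line a and 273 FPKM in line b, against 90.1 FPKM in 12-day wild type and 46.6 FPKM in 5-day wild type. Against 12-day wild type the sum was 2.84-fold higher in line a and 3.04-fold higher in line b, and between the wild types it was 1.93-fold higher at 12 days. NAC6 made up 38.9% of the sum in line a, 43.2% in line b, 53.8% in 12-day wild type and 50.6% in 5-day wild type. ONAC122 made up 9.39% for line a and 10.7% for line b, against 0.463% in 12-day wild type and 0.440% in 5-day wild type. The most abundant member exceeded the least abundant 12.9-fold in line a and 14.4-fold in line b, against 116-fold in 12-day wild type and 115-fold in 5-day wild type. By this measure the members lay closer together in level in the lines than in wild type. The least abundant member in wild type was ONAC122, at 0.417 FPKM at 12 days and 0.205 FPKM at 5 days. Its implied group errors there were 1.76 and 2.54 on the log2 scale, so the wild-type ranges rest on very low and uncertain values. Total FPKM over all loci was not equal between the groups. It was 2.39e+06 (line a), 2.16e+06 (line b), 8.37e+06 (12-day wild type) and 3.80e+06 (5-day wild type). The sums of the 8 loci were not scaled to these totals. They come from 1 value per group and were not tested.

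**Figure D4:**
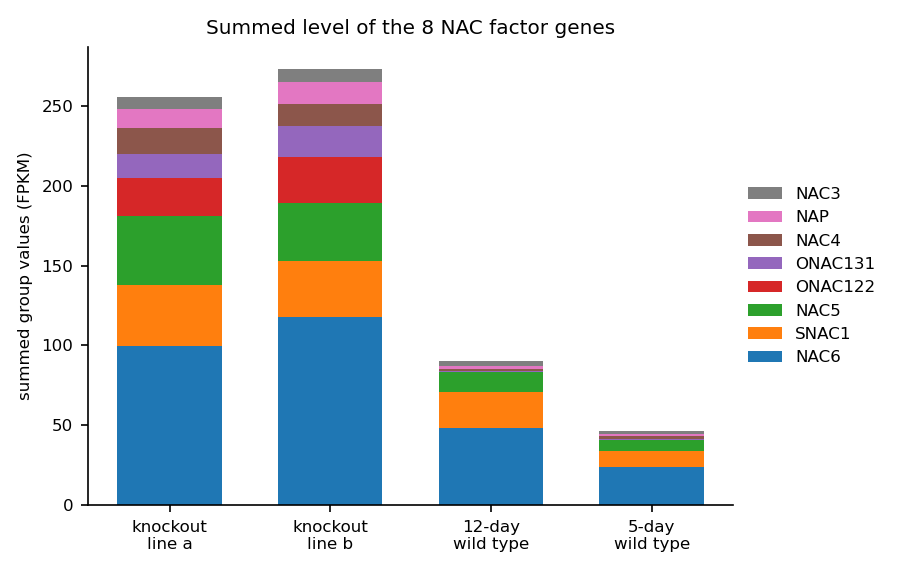
Summed FPKM of the 8 NAC loci in line a, line b, 12-day wild type and 5-day wild type, stacked by locus. The bars reach 256, 273, 90.1 and 46.6 FPKM, and NAC6 is the largest block in each.

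Genes of the pathways in which these factors act were read from lists written by locus. The counts below are to be read beside the shares over all tested loci against 12-day wild type, which were 21.3% higher and 23.5% lower for line a and 22.2% higher and 24.2% lower for line b. The list of other stress, defence and senescence NAC factors held 7 identifiers and did not cover the whole NAC family. Of its 5 tested loci, 3 were called higher and none lower in each line than in 12-day wild type. The median log2 ratio of the 5 was 0.69 for line a and 0.88 for line b. Os03g0777000 had a log2 ratio of 2.06 ± 1.04 for line a and 2.10 ± 1.04 for line b in the authors' deposited table. Os08g0433500, in 1 of the 2 loci that hold it, stood at 6.58 FPKM in line a and 7.62 FPKM in line b, against 0.132 FPKM in 12-day wild type in the authors' deposited table. Its implied error of 7.46 on the log2 scale for line a was larger than its log2 ratio of 5.64, although the deposited q of 0.0136 called it. The other locus that holds Os08g0433500 was not tested. That locus stood at 2.08 FPKM in line a and 1.32 FPKM in line b, against 1.59 FPKM in 12-day wild type. NAC2, a NAC factor of stress response, had a log2 ratio of 0.20 for line a and 0.31 for line b in the authors' deposited table and was not called.

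Of the 6 chlorophyll breakdown genes, which include reported targets of NAP, 2 were called higher and 1 lower in line a than in 12-day wild type, and 3 higher and 1 lower in line b. The median log2 ratio was 0.10 for line a and 0.26 for line b. SGR, which starts chlorophyll breakdown in leaves, stood at 61.7 FPKM in line a and 73.8 FPKM in line b, against 10.7 FPKM in 12-day wild type in the authors' deposited table. Its log2 ratio was 2.53 ± 0.31 for line a and 2.78 ± 0.31 for line b in the authors' deposited table (Cuffdiff q = 0.000253 for each). NOL, a subunit of chlorophyll b reductase, was called lower, at 23.4 FPKM in line a and 22.4 FPKM in line b, against 35.3 FPKM in 12-day wild type in the authors' deposited table. NYC1, which acts with NOL, had a log2 ratio of -0.16 for line a and -0.10 for line b in the authors' deposited table and was not called. Os06g0354700 had a log2 ratio of 0.68 for line a and 0.82 for line b and was called higher in both in the authors' deposited table.

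Of the 3 tested genes of abscisic acid synthesis and breakdown in line a, 1 was called higher and 1 lower than in 12-day wild type, and of 4 tested in line b, 2 were higher and 1 lower. ABA8OX1, an abscisic acid 8′-hydroxylase that breaks the hormone down, had a log2 ratio of 0.94 for line a and 1.11 for line b in the authors' deposited table and was called in both. Os02g0704000 was called lower, with a log2 ratio of -0.79 for line a and -0.66 for line b in the authors' deposited table. In abscisic acid signalling 4 of 10 tested genes were called higher and 1 lower in line a, and 4 of 9 higher and 2 lower in line b. BZIP23, a transcription factor of that pathway, had a log2 ratio of 1.37 for line a and 1.09 for line b in the authors' deposited table and was called in both. PP2C06, a protein phosphatase 2C of the kind that restrains the pathway, had 0.55 for line a and 0.61 for line b in the authors' deposited table. For the locus of PP2C09, which merges 2 genes, these log2 ratios were 0.87 and 0.97, and for Os06g0211200 they were 1.08 and 0.72, in the authors' deposited table. Os09g0456200 of the same list was called lower in both lines, with -0.49 for line a and -0.67 for line b. PP2C53 was called lower in line b alone, with -0.44.

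Of 7 tested drought and abscisic acid responsive proteins, 5 were called higher and none lower in each line than in 12-day wild type, with a median log2 ratio of 3.96 for line a and 3.16 for line b. RAB16A/RAB21, a dehydrin, stood at 260 FPKM in line a and 156 FPKM in line b, against 3.84 FPKM in 12-day wild type in the authors' deposited table. LEA3, a late embryogenesis abundant protein and the reported NAC5 target, stood at 94.0 FPKM in line a and 54.2 FPKM in line b, against 6.05 FPKM in 12-day wild type in the authors' deposited table. SALT, a salt-induced lectin, had a log2 ratio of 6.16 for line a and 6.23 for line b in the authors' deposited table. Os01g0705200 had a log2 ratio of 3.44 for line a and 2.48 for line b in the authors' deposited table. RAB16C, another dehydrin, had 2.96 for line a and 1.93 for line b in the authors' deposited table and was called in both. RAB16B had 5.54 ± 1.34 for line a and 4.07 ± 1.36 for line b and was not called (Cuffdiff q = 0.1003 for each) in the authors' deposited table. DIP1 had 0.20 ± 0.21 for line a and 0.14 ± 0.22 for line b in the authors' deposited table and was not called.

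Of 2 reported SNAC1 targets, Os03g0230300 was called higher and Os02g0149800 was not called. The log2 ratio of Os03g0230300 was 1.93 ± 1.11 for line a and 1.95 ± 1.10 for line b in the authors' deposited table. All 4 genes of the list on defence tied to ONAC122 and ONAC131 were called higher in both lines, with a median log2 ratio of 2.93 for line a and 3.10 for line b. A chitinase, CHT1, had a log2 ratio of 4.62 for line a and 4.96 for line b in the authors' deposited table. Os07g0129200 had 5.82 ± 1.81 and 6.11 ± 1.80, and Os05g0322900 had 0.76 and 0.44, for line a and line b in the authors' deposited table. In 12-day wild type Os07g0129200 stood at 0.626 FPKM, so the size of its ratios rests on a very low value. NH1, the rice counterpart of the Arabidopsis salicylic acid receptor NPR1, stood at 9.89 FPKM in line a and 10.0 FPKM in line b, against 4.22 FPKM in 12-day wild type in the authors' deposited table. The lists hold few loci and share their control samples with the members, so their counts are descriptions only.

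**Figure D5:**
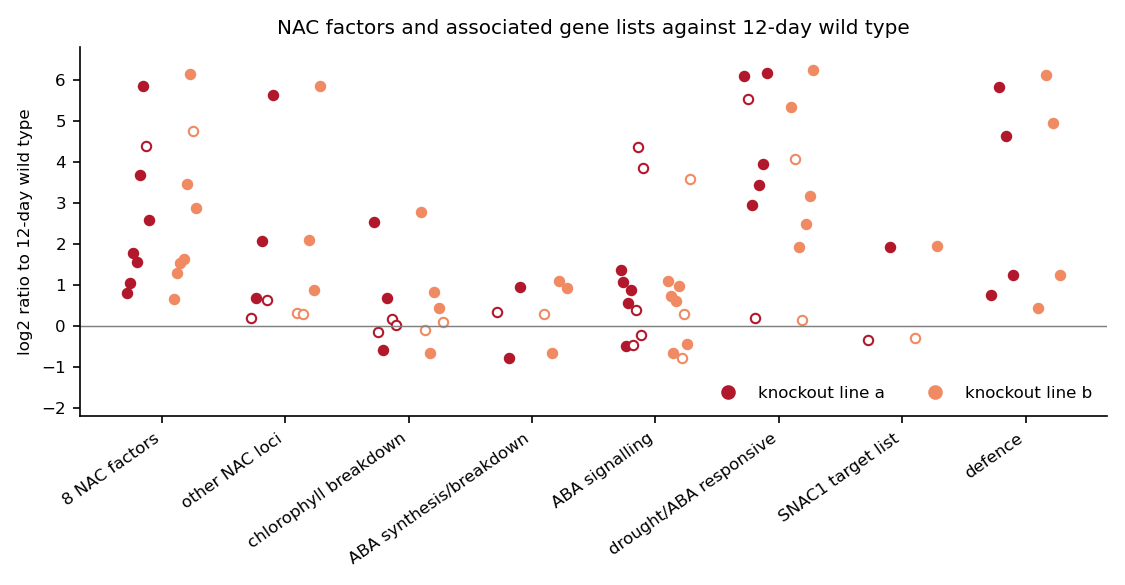
Log2 ratio to 12-day wild type of the 8 NAC loci and of the loci in each list, for line a and line b. Filled points were called and open points were not. The tested loci of the defence, drought and abscisic acid responsive and other NAC lists all lie above 0. The lists of chlorophyll breakdown, abscisic acid synthesis and breakdown, abscisic acid signalling and SNAC1 targets have loci on both sides of it.

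The loci whose group pattern was most like that of each member were found by the distance between log2(FPKM + 1) values over the 4 groups, each centred on its own mean, among 22037 candidate loci. The nearest to SNAC1 was Os01g0851100 at a distance of 0.083, with 20.7 FPKM in line a, 19.4 FPKM in line b, 11.9 FPKM in 12-day wild type and 4.88 FPKM in 5-day wild type. For NAC6 it was Os07g0663000 at 0.082, for NAC5 Os08g0101500 at 0.070 and for NAC3 Os11g0590700 at 0.005. For NAC4 it was Os01g0612500 at 0.153, for ONAC122 Os07g0258400 at 0.123, for ONAC131 Os05g0104200 at 0.079 and for NAP Os06g0168500 at 0.064. The second nearest were Os04g0320700 to SNAC1 at 0.101, Os05g0128200 to NAC6 at 0.138, Os01g0191900 to NAC5 at 0.074 and Os04g0598900 to NAC3 at 0.009. The second nearest to NAC4 was Os04g0206600 at 0.168, to ONAC122 Os03g0109000 at 0.184, to ONAC131 Os07g0537900 at 0.101 and to NAP Os08g0207500 at 0.070. Among the members themselves, SNAC1 and NAC6 lay 0.503 apart, NAC6 and NAC5 0.504, and ONAC122 and ONAC131 0.968. With a pseudocount of 0.1 in place of 1, 8 of these 16 loci stood beyond place 100 in nearness to their member. The nearest to NAC6, Os07g0663000, then stood at place 16416, the nearest to NAC3, Os11g0590700, at 1418, and the second nearest to NAC3, Os04g0598900, at 12828. No member was among the 2 loci nearest to another member, and 4 points that share a table give only a coarse measure of likeness.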

How the data were processed

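The authors' deposited values are FPKM per merged locus, 1 per group over 3 replicates, with no value per sample and no counts, so depth and replicate spread are unknown. Per the submitters' processing notes, Trimmomatic, FastQC, HISAT2, Cufflinks and Cuffdiff were used with build IRGSP-1.0, and versions, normalization between libraries and strand are not given in the sources used here. Coordinates are printed as the authors' deposited table has them, and it does not state whether starts count from 0 or 1. Deposited changes are log2 ratios, and a score, the Cuffdiff statistic, accompanies each test. The authors' q-value is the Benjamini-Hochberg adjusted form of the p-value, deposited beside it, over 108602 tests in 6 comparisons, and the smallest p was 5e-05. P-values measure the spread between the 3 samples a group, as Cuffdiff models it.

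Calls needed a q under 0.05. Implied errors are the log2 ratio over the statistic, and group errors were solved from pairs of groups. For p from 0.001 to 0.5 the normal deviate of the deposited p was a median 1.75 times the statistic, so p commonly treats ratios as more precise than the implied error. ONAC122 and ONAC131 went the other way in the lines against either wild type, though not between the lines.

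Sample titles and source names give the knockout line letters opposite ways. The titles were followed, and if the source names are correct instead, every result of line a is one of line b and the reverse. The members and lists were chosen with earlier results of these data known. Named were OsC3'H1, all members, at most 4 loci a list (called in both lines, by the smaller absolute ratio), and the 2 loci nearest to each member in pattern. Naming loci from the whole annotated NAC family was planned but could not be done. NAC2, NYC1, Os02g0149800, DIP1, RAB16B, RAB16C, PP2C51, PP2C53, Os09g0456200 and the tissue markers were named outside that rule, after their values were seen. Symbols were checked against RefSeq assembly ASM3414082v1 by chromosome and relative position within 0.1 of its length. Of 56 list identifiers 37 matched, 18 had no such symbol (given by locus only) and 1 was not analysed here. NAC6, NAC5, NAC3 and NAC4 matched, and the names SNAC1, ONAC122, ONAC131 and NAP come from the selection. Scripts used Python 3.11.15, pandas 2.3.3, numpy 2.4.6, scipy 1.17.1 and matplotlib 3.10.9. The test on implied errors was run on data simulated with normal noise of those same errors. Such data cannot show whether the implied errors hold for the deposited values.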

Additional observations from a re-analysis of the deposited data

Results flagged for a closer look

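No NAC member differed between the lines by the deposited q, but 10 loci of the lists and leaf markers did. Of these, 9 were lower in line b. Over all loci, 5% of 17876 tested were called in either direction, and the share called lower was not computed. Of the 9, 5 were drought and abscisic acid responsive loci, a list with 7 tested. Each value is the log2 ratio of line b to line a in the authors' deposited table. RAB16A/RAB21 had -0.74 ± 0.21 (156 FPKM in line b, 260 FPKM in line a; Cuffdiff q = 0.000253). LEA3 had -0.80 ± 0.23 (54.2 FPKM in line b, 94.0 FPKM in line a; Cuffdiff q = 0.000253). Os01g0705200 had -0.96 ± 0.52 (6.21 FPKM in line b, 12.0 FPKM in line a; Cuffdiff q = 0.00991). RAB16B had -1.47 ± 0.36 (14.9 FPKM in line b, 41.2 FPKM in line a; Cuffdiff q = 0.000253). RAB16C had -1.03 ± 0.48 (9.66 FPKM in line b, 19.7 FPKM in line a; Cuffdiff q = 0.00301). PP2C51, of the abscisic acid signalling list, had -1.16 ± 0.73 (2.42 FPKM in line b, 5.40 FPKM in line a; Cuffdiff q = 0.0293). Os05g0322900 had -0.32 ± 0.23 (54.0 FPKM in line b, 67.4 FPKM in line a; Cuffdiff q = 0.0473). CHT1 had 0.33 ± 0.20 (552 FPKM in line b, 438 FPKM in line a; Cuffdiff q = 0.00797). Of the leaf markers, RCA had -0.38 ± 0.25 (806 FPKM in line b, 1046 FPKM in line a; Cuffdiff q = 0.0245). CAB2R had -0.52 ± 0.26 (29.9 FPKM in line b, 43.0 FPKM in line a; Cuffdiff q = 0.00301). Every one of these signs turns round if the source names, not the titles, give the line letters.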

How the results depend on the processing

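Taking p from the deposited statistic, adjusted over all tests, changed the count for line b against 12-day wild type. It called 4 NAC loci (NAC6, NAC4, ONAC122 and NAP) in place of 7. In either direction it called 23% of all loci it could test, whereas a q under 0.05 called 22.2% higher and 24.2% lower. By the authors' column of significant loci, which follows a q under 0.1 and was added after seeing the data, 2 loci (NAC6 and ONAC122) were called between line b and line a in place of 0, beside 8.02%. The cause was not tested in either case. The other counts stayed within 1.5 times the main one under q under 0.01, a 2-fold minimum, adjustment within the comparison, a filter at 1 FPKM, p from the statistic and the authors' column. Against 12-day wild type ONAC122 was lost at q under 0.01 and SNAC1 at the 2-fold minimum, in both lines. All 48 log2 ratios kept their sign with a pseudocount of 1 or 0.1 and after centring on the median of all tested loci. The largest shift was 2.51 with a pseudocount of 1, for ONAC122 in line b against 5-day wild type, and 0.57 with 0.1 for the same ratio. Many of the loci nearest in pattern did not stay near with a pseudocount of 0.1 in place of 1: 8 of the 16 stood beyond place 100 among candidates, up to place 16416. No replicate could be left out in turn. No paired analysis was possible because the deposited table holds 1 value per group.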
